A study of Mus musculus with 2 samples.

Results

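Heme and iron handling genes were read in sections of mouse cerebellum that carried a breast tumor. The 10 genes were listed by name for their roles, when earlier results of these data were already known, so the counts of members called below are a description. They were *Hmox1*, *Blvrb*, *Cd163*, *Hpx*, *Fth1*, *Ftl1*, *Slc40a1*, *Cp*, *Tfrc* and *Slc11a1*. Of these, 9 were among the 19465 genes counted, and *Ftl1* was not analysed here. The data were 2 untreated cerebellar sections, each 5 µm thick and each from a different C57BL/6 mouse. Both mice were about 5 months old. Organoids of mammary tumors with HER2 V777L and PIK3CA H1047R (HP organoids) had been injected into the cerebellum. Section 1 is replicate 1, titled HP-F1, and section 2 is replicate 2, titled HP-B6. The labels give both the genotype HP but do not say whether the titles stand for separate organoid lines, so a difference between organoids, animals or sections cannot be told apart. The organoids came from tumors that arose after Cre adenovirus was given into the mammary gland, and were selected for a luciferase label. The tumors were therefore placed in the brain by a needle and did not reach it through the blood. Transcripts were read by Visium CytAssist on fixed, paraffin-embedded tissue, which counts probe pairs as unique molecular identifiers (UMIs) on an array of barcoded spots. A spot is a small area that can hold several cells.

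Heme released from hemoglobin is opened by heme oxygenase, which frees iron, carbon monoxide and biliverdin. The freed iron is held in ferritin or leaves the cell through ferroportin, while iron bound to transferrin enters through the transferrin receptor. Macrophages that take up red cells carry out most of this recycling, and in brain tissue microglia and oligodendrocytes also hold iron.

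Spots were assigned to tumor, inner edge (tumor side, within 2 array steps of the border), outer edge (neural side, within 2 steps) and neural tissue. The assignment used lists of epithelial and stromal genes against neural genes, with no heme, iron or hemoglobin gene among them. Section 1 held 749, 119, 125 and 2322 spots in these regions, and section 2 held 958, 196, 191 and 2642. The median spot held 54693 UMIs in the tumor of section 1 and 39650 in that of section 2, against 7462.5 and 9569 in neural tissue, so levels are given per 1000000 UMIs of the summed spots (CPM). The tumors differed in kind. *Epcam*, which marks epithelium, was at 6.43 CPM on the tumor side of section 1 and at 1663 CPM in the main tumor of section 2, whereas the collagen gene *Col1a1* was at 21192 and 217 CPM. On the tumor side of section 2, 1 group of 46 spots carried the choroid plexus gene *Ttr* at 218237 CPM and *Epcam* at only 27.9 CPM. That group was kept in the regions, and leaving it out changed no call of a member. Its own spots were left out of the levels by step from the border and of the correlations over those steps. Neural spots near it were still counted by their steps from it, as from a tumor border. In section 2 the summed choroid plexus genes were at 151 CPM at 1 step inside and 1593 at 1 step outside.

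Upstream sequence was available in the RefSeq set used here (GRCm38.p6) for 8 of the 10 genes. *Hmox1* and *Slc40a1* had no entry in that set, so their upstream sequence was not searched. RefSeq gives 2 starts each for *Blvrb*, *Cp*, *Fth1* and *Tfrc*. The 250 bases before 1 start are shown for *Slc11a1*, *Blvrb* and *Cp*, which were higher at the edge and in the tumor than in neural tissue, and for *Fth1*, which was higher at the edge than in the tumor. Of genes with 2 starts the window with more matches is printed. They lie at chr1:74374953-74375202, chr7:27447728-27447977, chr3:19956999-19957248 and chr19:9982396-9982645, all on the plus strand, and are written 5′ to 3′. Capitals mark a GC box (GGGCGG) or a TATA box (TATAAA) on either strand.

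Slc11a1: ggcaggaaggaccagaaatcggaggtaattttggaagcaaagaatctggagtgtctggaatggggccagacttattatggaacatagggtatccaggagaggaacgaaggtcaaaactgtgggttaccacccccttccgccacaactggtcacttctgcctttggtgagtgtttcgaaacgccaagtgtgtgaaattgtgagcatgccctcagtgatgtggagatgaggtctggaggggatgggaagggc

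Blvrb: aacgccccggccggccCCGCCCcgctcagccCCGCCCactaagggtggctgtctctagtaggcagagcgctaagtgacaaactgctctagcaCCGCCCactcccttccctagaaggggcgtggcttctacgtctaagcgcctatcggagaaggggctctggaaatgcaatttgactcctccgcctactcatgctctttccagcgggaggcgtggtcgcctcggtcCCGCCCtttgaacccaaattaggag

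Cp: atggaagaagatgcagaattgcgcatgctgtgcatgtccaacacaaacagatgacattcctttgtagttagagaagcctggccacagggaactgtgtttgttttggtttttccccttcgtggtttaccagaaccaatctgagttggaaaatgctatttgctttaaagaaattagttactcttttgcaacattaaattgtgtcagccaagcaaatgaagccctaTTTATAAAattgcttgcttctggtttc

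Fth1: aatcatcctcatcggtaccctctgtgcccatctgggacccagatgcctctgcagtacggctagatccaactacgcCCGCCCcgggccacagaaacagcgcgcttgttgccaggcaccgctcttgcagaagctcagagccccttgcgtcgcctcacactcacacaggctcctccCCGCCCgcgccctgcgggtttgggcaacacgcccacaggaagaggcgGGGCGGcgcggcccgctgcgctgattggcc

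The printed *Blvrb* window held 4 GC boxes and that of *Fth1* 3, whereas the windows of their other starts held 0, and 32.7% of all 32851 windows held at least 1. The printed *Cp* window held TATAAA on both strands, overlapping by 4 bases, at 27 and 25 bases before the start, and 12.4% of all windows held it. The window of the other *Cp* start had no TATAAA, and that of the other *Fth1* start had 1, at 124 bases before the start. The *Slc11a1* window held neither. Searches for the antioxidant response element core (TGACNNNGC, in 10.2% of windows), the E-box (CACGTG, in 6.02%) and a PU.1-type site (GAGGAAGT, in 2.44%) found 1 match over the windows of the 8 genes, an antioxidant response element core upstream of *Hpx*. A match of letters shows no binding.

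The first question was how the members were spread over tumor, edge and neural tissue. Heme oxygenase, the phagosomal metal transporter *Slc11a1*, biliverdin reductase B and ceruloplasmin were higher at the edge than in neural tissue in both sections, and the transferrin receptor was lower. The spots of each region were added up within their section, and the resulting 8 libraries entered edgeR's quasi-likelihood test, in which section was a blocking factor. A gene was called at a Benjamini-Hochberg adjusted p below 0.05 over the 19092 genes tested. At the edge against neural tissue 5 of 9 members were called, 4 higher and 1 lower, against 20.4% of all genes (8.88% higher and 11.5% lower, and 15.2% called with a log2 change over 1). The median log2 fold change was 1.40 over the members and -0.06 over all genes. At the edge against the tumor 2 of 9 were called, *Fth1* higher and *Cp* lower, against 15.9% of all genes (8.07% higher, 7.83% lower, and 10.6% with a log2 change over 1). In the tumor against neural tissue *Slc11a1*, *Blvrb* and *Cp* were called, all higher, or 3 of 9 against 36.8% of all genes (19.6% higher, 17.2% lower, and 29.4% with a log2 change over 1). The last 2 shares lie near the background. No gene was called between the outer and the inner edge by edgeR (0%), where 1907 genes had an unadjusted p under 0.05 and DESeq2 called 192, none of them a member (its adjusted p for *Cd163* and *Hpx* was not given). In a section that mixes cells within spots, more cells of a type and more RNA per cell cannot be told apart.

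**Figure D1:**
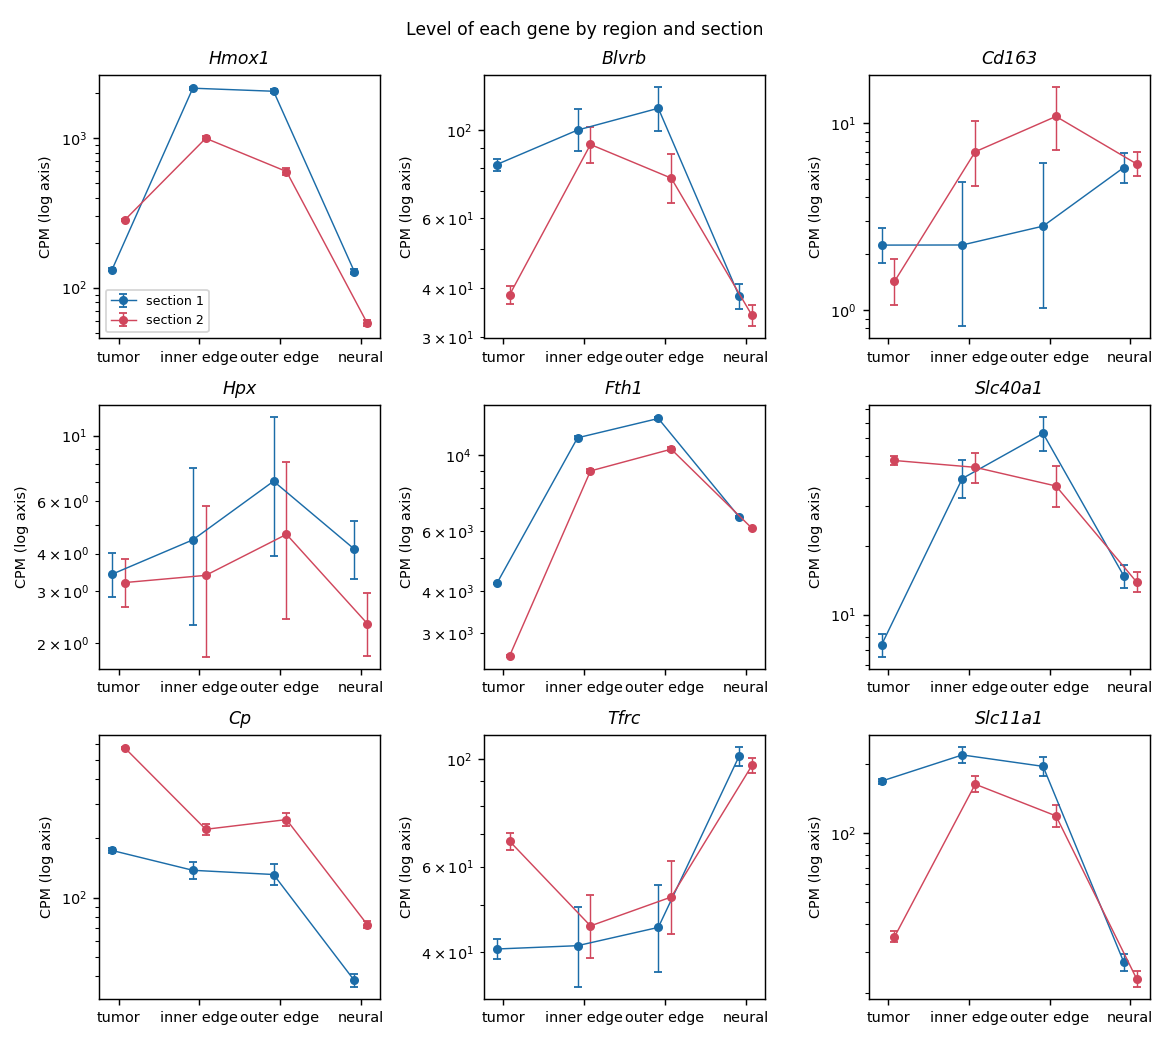
Level of each of the 9 genes by region, in CPM on a log axis, for section 1 (blue) and section 2 (red). Points are summed spots, and bars are 95% Poisson intervals that cover counting error only. *Hmox1* reached 2154 and 996 CPM at the inner edge, and *Tfrc* was highest in neural tissue.

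*Hmox1* encodes the inducible heme oxygenase that opens the heme ring. In section 1 its level was 132 CPM in the tumor, 2154 at the inner edge, 2055 at the outer edge and 128 in neural tissue. In section 2 the same regions held 284, 996, 598 and 57.9 CPM. The edge was thus above both flanks in each section, and no edge value overlapped a value from tumor or neural tissue. The edge exceeded neural tissue 16.5-fold in section 1 and 14.4-fold in section 2, with a fitted log2 fold change of 3.95 (SE 0.70, edgeR adjusted p = 0.0145). Against the tumor the edge was 16.0-fold higher in section 1 but 2.94-fold higher in section 2. The fitted value was 2.16 (SE 0.65, edgeR adjusted p = 0.0738), so this comparison was not called, although DESeq2 gave an adjusted p of 0.00134. The tumor itself stood at 1.03 times neural tissue in section 1 and 4.91 times in section 2 (edgeR adjusted p = 0.0919). With the border drawn from neural genes alone, this last value turned to -0.57 on the log2 scale, while the edge against neural tissue remained called at 2.26.

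By distance from the border, *Hmox1* peaked 1 step inside the tumor in both sections, at 2744 and 1204 CPM. In section 1 the level was 170 CPM at 5 steps inside and 267 at 5 steps outside, and it was 38.0 CPM at 12 steps inside. A level of at least 50% of the peak was held from 2 steps inside to 2 steps outside in section 1, and from 2 inside to 1 outside in section 2. In section 2 the level went down to 87.2 CPM at 7 steps inside and was 326 at 12 steps inside. The band was therefore narrow on both sides in section 1, while deep spots of the tumor of section 2 were again high.

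**Figure D2:**
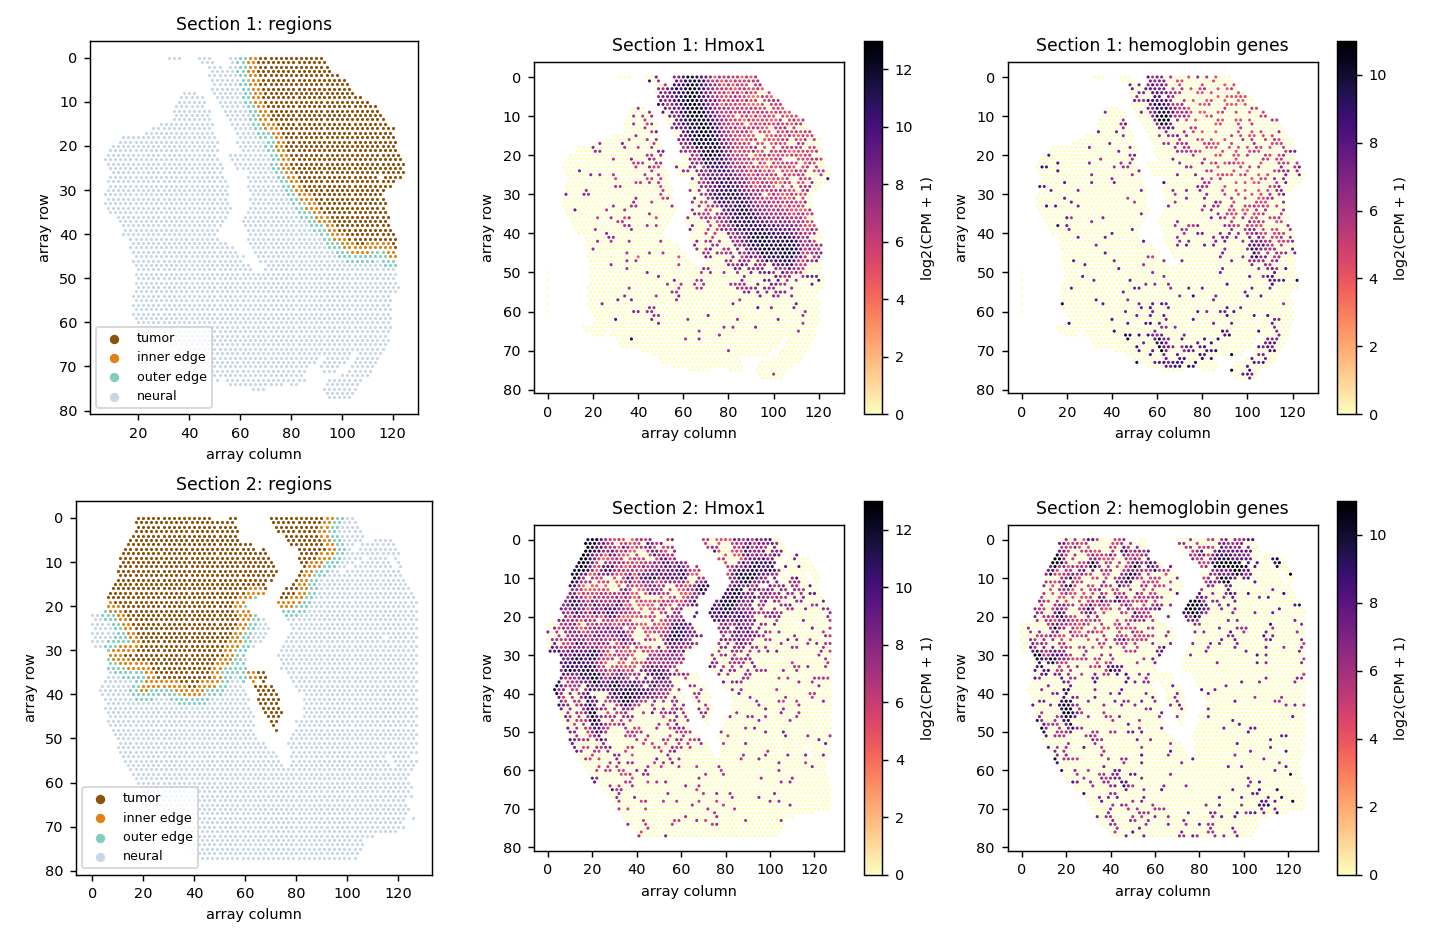
Array maps of section 1 (top) and section 2 (bottom), showing region, *Hmox1* and the summed hemoglobin genes, each spot colored by log2(CPM + 1) on axes of array column and row. *Hmox1* followed the border as a band in section 1, and it formed patches in the tumor as well as at the border of section 2.

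**Figure D3:**
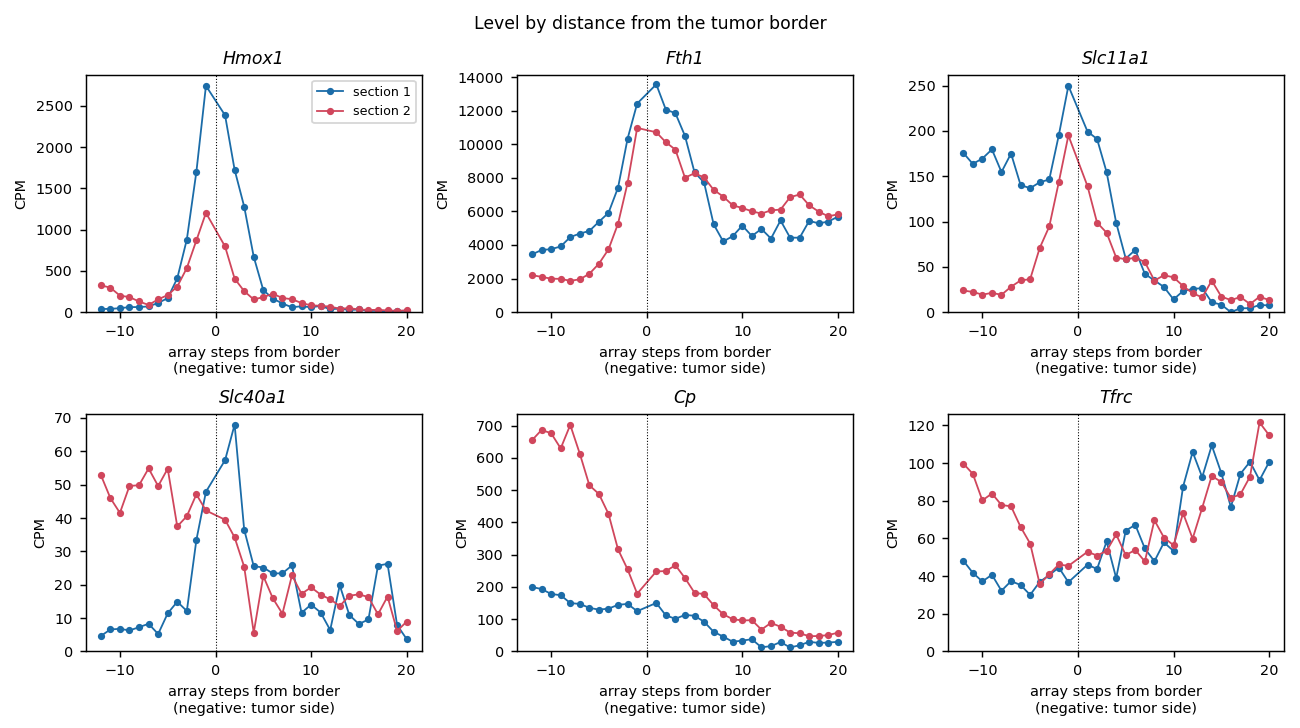
Level in CPM of 6 genes by array steps from the tumor border (dotted line, negative on the tumor side) in section 1 (blue) and section 2 (red). *Hmox1* and *Slc11a1* peaked 1 step inside the tumor in both sections, and *Cp* was highest deep in the tumor. Outside steps of section 2 include those counted from the choroid plexus group.

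Macrophage transcripts were also high at the edge of both sections, but in section 1 they were nearly as high deep in the tumor. By distance in section 1, the macrophage list was at 8108 CPM at 12 steps inside and peaked at 9367 at 1 step outside. The summed level of 12 macrophage genes was 7611 CPM in the tumor, 8418 at the inner edge, 8877 at the outer edge and 1625 in neural tissue of section 1, and 2013, 6904, 5182 and 1746 CPM in section 2. All 12 were detected in every region. Some of these 12 genes also mark microglia, so the list does not separate the 2 cell types. The summed level of 8 microglia genes was likewise higher at the edge, at 1926 and 1447 CPM in sections 1 and 2, than in neural tissue, at 695 and 798. Per 1000 macrophage UMIs, *Hmox1* gave 17.3 UMIs in the tumor, 245 at the edge and 78.8 in neural tissue of section 1. In section 2 it gave 141, 135 and 33.2. Within section 1 *Hmox1* thus differed between tumor and edge while the macrophage list hardly did, and in section 2 both were several times lower in the tumor than at the edge. Whether macrophages or other cells of these spots held the transcript was not tested.

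*Blvrb* encodes biliverdin reductase B. It was at 81.7 CPM in the tumor, 99.8 at the inner edge, 113 at the outer edge and 38.2 in neural tissue of section 1. In section 2 the values were 38.4, 91.8, 75.5 and 34.1 CPM. All edge values lay above all neural values, 2.77-fold in section 1 and 2.50-fold in section 2. Per 1000 macrophage UMIs *Blvrb* was instead lower at the edge, at 12.3 and 13.7, than in neural tissue, at 23.5 and 19.5. The fit gave 1.40 for edge against neural tissue (SE 0.25, edgeR adjusted p = 0.0134), which was lost with the border drawn from neural genes (adjusted p = 0.0762). Tumor against neural tissue was called at 0.99 (SE 0.27, edgeR adjusted p = 0.0321), but the tumor of section 2 was only 1.13-fold above neural tissue. It no longer passed when the block was dropped (adjusted p = 0.0587), when only library size was used for scaling (0.0933) or when neural genes alone set the border (0.281).

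*Cd163*, the macrophage receptor for hemoglobin bound to haptoglobin, and *Hpx*, the plasma protein that binds free heme, were sparse. *Cd163* had 213 UMIs over all of section 1 and 281 over section 2. Its level in section 1 was 2.22 CPM in the tumor, 2.23 and 2.81 at the inner and outer edge and 5.78 in neural tissue, and in section 2 it was 1.42, 7.02, 10.8 and 6.04. The edge was lower than neural tissue in section 1 and not in section 2, and *Cd163* was called in no comparison. Per 1000 macrophage UMIs it was highest in neural tissue of both sections, at 3.56 and 3.46, against 0.288 and 1.38 at the edge. Microglia can add to the UMIs of that list. *Hpx* ranged from 2.33 to 7.02 CPM over the 8 libraries and was highest at the outer edge of each section. Those outer edge values rest on 15 and 12 UMIs, and their counting intervals overlapped those of the other regions, so this order is not a finding. It too was called in no comparison (adjusted p of 0.204 for edge against neural tissue).

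*Fth1* encodes the heavy chain of ferritin, which stores iron. Its level in section 1 was 4200 CPM in the tumor, 11243 at the inner edge, 12811 at the outer edge and 6589 in neural tissue. In section 2 it was 2580, 8987, 10410 and 6098 CPM. All 4 edge libraries stood above all others, and the tumor was the lowest region in both sections. Tumor against neural tissue was fitted at -0.61 and was not called (edgeR adjusted p = 0.145), except with library size alone. Edge exceeded tumor 2.84-fold and 3.71-fold, fitted at 1.39 (SE 0.26, edgeR adjusted p = 0.0215), and this call was lost with the border drawn from neural genes. Edge against neural tissue was fitted at 0.78 and was not called (adjusted p = 0.0821), although DESeq2 and an edge of 1 step did call it. In neural spots *Fth1* followed the summed oligodendrocyte genes, with a Spearman rho of 0.80 over 2322 spots of section 1 and 0.77 over 2642 spots of section 2, a description over spots that share a library. The oligodendrocyte list was at 5769 and 5071 CPM at the edge, below the 14503 and 10468 CPM of neural tissue. Its level thus ran opposite to that of *Fth1* between these regions. In the tumor the list was at 316 and 575 CPM, so between tumor and edge it ran the same way as *Fth1*. The part of oligodendrocytes in the level of *Fth1* was not tested.

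The pseudogene *Ftl1-ps1*, named here after its values were seen, was counted in place of the ferritin light chain. It is nearly identical to its parent gene, so the source of its UMIs is uncertain. It was at 140 and 151 CPM at the inner and outer edge of section 1, against 42.0 in the tumor and 28.7 in neural tissue. In section 2 it was at 93.6 and 66.2 CPM, against 31.2 and 25.4. Edge against neural tissue gave 2.01 (SE 0.27, edgeR adjusted p = 0.00598) and edge against tumor 1.27 (SE 0.25, adjusted p = 0.0247).

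*Slc40a1* encodes ferroportin, the iron exporter. It was at 7.35 CPM in the tumor, 39.7 at the inner edge, 62.7 at the outer edge and 14.8 in neural tissue of section 1. In section 2 it was at 47.7, 44.5, 36.8 and 13.9 CPM. All edge values exceeded all neural values, by 3.37-fold and 2.98-fold, yet the fit did not call it (1.72, SE 0.72, edgeR adjusted p = 0.162), and DESeq2 did. The tumors went opposite ways. The tumor was lower than neural tissue in section 1 and 3.43-fold higher in section 2, and the share of tumor spots with a UMI was 29.9% and 75.2%.

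*Cp* encodes ceruloplasmin, the copper ferroxidase that aids iron export. It was at 174 CPM in the tumor, 138 at the inner edge, 131 at the outer edge and 38.1 in neural tissue of section 1, and at 573, 222, 249 and 73.1 CPM in section 2. Within each section the order was tumor, edge, neural tissue. Tumor against neural tissue gave 2.96 (SE 0.30, edgeR adjusted p = 8.75e-04), and edge against neural tissue 1.78 (SE 0.26, adjusted p = 0.00783). Edge against tumor was called at -1.17 (SE 0.24, edgeR adjusted p = 0.0252). When the block was dropped the calls of edge against neural tissue (adjusted p = 0.127) and edge against tumor (0.183) were lost. The latter was also lost with library size alone (0.0601) and with the border from neural genes (0.178). In section 2 *Cp* went from 179 CPM at 1 step inside the border to 702 at 8 steps inside. In section 1 it was 200 CPM at 12 steps inside and 125 at 1 step inside.

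*Tfrc* encodes the transferrin receptor, through which cells take up iron. In section 1 it was at 40.5 CPM in the tumor, 41.2 at the inner edge, 44.9 at the outer edge and 101 in neural tissue, and in section 2 at 67.6, 45.2, 51.9 and 97.0. Neural tissue was the highest region in both sections. The edge was lower by 1.10 on the log2 scale (log2 fold change -1.10, SE 0.20, edgeR adjusted p = 0.0134). Tumor against neural tissue was not called (-0.57, adjusted p = 0.102), except with library size alone. By distance, the lowest level lay 5 steps inside the border in section 1 and 4 steps inside in section 2, at 30.0 and 35.8 CPM. *Tfrc* remained under 70 CPM up to 10 steps outside the border in section 1.

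*Slc11a1* encodes NRAMP1, a transporter that can move divalent metal ions out of the phagosome of macrophages. Only its transcript was counted, and whether these C57BL/6 mice hold a working form of the protein was not tested. It was at 168 CPM in the tumor, 219 at the inner edge, 195 at the outer edge and 27.2 in neural tissue of section 1. In section 2 it was at 35.1, 163, 118 and 22.9 CPM. Every edge value was above every neural value, with folds of 7.67 and 6.33 (2.76, SE 0.48, edgeR adjusted p = 0.0132). Tumor against neural tissue was called at 2.07 (SE 0.51, adjusted p = 0.0225), with 6.19-fold in section 1 and 1.53-fold in section 2. Both calls were lost with the border drawn from neural genes (adjusted p of 0.169 and 0.439). Per 1000 macrophage UMIs *Slc11a1* lay between 13.1 and 26.0 in all 8 libraries, a far smaller spread than that of *Hmox1*.

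The second question was how the members related to hemoglobin transcripts, which mark red cells in vessels or outside them. The 7 hemoglobin genes gave 1544 UMIs in section 1 and 4954 in section 2. Their level was 10.7 CPM in the tumor, 44.9 at the inner edge, 178 at the outer edge and 31.7 in neural tissue of section 1, and 78.0, 238, 193 and 23.6 CPM in section 2. The adult genes *Hba-a2*, *Hbb-bs* and *Hbb-bt* made up 1135 and 4633 of the UMIs and were focal. The embryonic genes *Hba-x*, *Hbb-bh1*, *Hbb-bh2* and *Hbb-y* together stayed between 3.63 and 10.8 CPM everywhere. The 7 erythroid precursor genes measured stayed between 7.95 and 23.4 CPM in sum.

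The 10% of spots with the most hemoglobin were compared with the other spots of the same section and region, which gave 8 pairs. With 2 animals this is a description with no test. Some pairs rest on little hemoglobin or few spots. The hemoglobin-high group held 12 spots at both the inner and the outer edge of section 1, and 20 and 19 in section 2. The inner edge of section 1 held 121 hemoglobin UMIs in all, the fewest of the 8 pairs. Only 15.0% and 16.3% of the neural spots of sections 1 and 2 held any hemoglobin UMI, with 620 and 680 UMIs in all. In the tumor of section 1, adult genes gave 227 of the 422 hemoglobin UMIs. With spots chosen by adult globin genes alone, the *Hmox1* ratio described next had a median of 1.58, above 0 in 8 of 8 pairs. *Hmox1* was higher in the hemoglobin-high spots in 8 of 8 pairs. In section 1 it was at 365 against 114 CPM in the tumor, 4754 against 1938 at the inner edge, 3417 against 1933 at the outer edge and 291 against 113 in neural tissue. In section 2 it was at 980 against 223, 1688 against 936, 1024 against 555 and 172 against 47.2 CPM. The log2 ratio of CPM + 1 ranged from 0.82 to 2.13, with a median of 1.33. Set among all genes with at least 50 UMIs in the same pair, it lay between the percentiles 93.5 and 99.96.

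This difference held its direction in all 8 pairs under each other way of choosing the spots. When the spots were taken as the top 10% at each step from the border, the median was 0.84. Within terciles of the macrophage list it was 1.26, and within terciles of UMIs per spot 1.12. The hemoglobin-high spots were shallower in every pair, for example 38664 against 56582 UMIs for the median tumor spot of section 1, and the part of depth beyond these terciles was not tested. The summed endothelial genes were also higher in the hemoglobin-high spots in 7 of 8 pairs, for example at 919 against 611 CPM in the tumor and 1220 against 845 at the inner edge of section 2. In neural tissue of section 1 the 2 levels were nearly equal, at 748 against 745 CPM. The inner edge of section 1 was the exception, at 750 against 920 CPM. The part of endothelial cells in the *Hmox1* difference was not tested. The macrophage list was lower in the hemoglobin-high spots in every region of section 1 and at the inner edge of section 2. An example is the outer edge of section 1, at 6010 against 9134 CPM. It was higher in the other regions of section 2, for example at 2752 against 1948 CPM in the tumor.

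**Figure D4:**
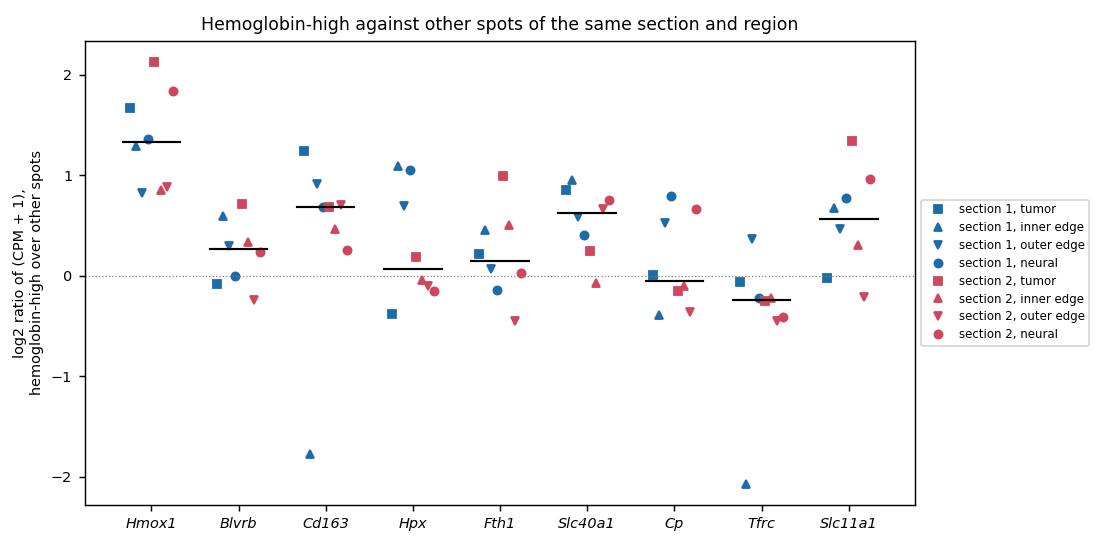
Log2 ratio of (CPM + 1) in hemoglobin-high over other spots of the same section and region, 8 values for each gene (blue section 1, red section 2, symbols for the region), with black bars at the median. All 8 values of *Hmox1* lie above 0, from 0.82 to 2.13, while those of *Fth1*, *Cp* and *Hpx* lie on both sides of it.

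The other members followed hemoglobin less closely. Over all genes with at least 50 UMIs, the median log2 ratio lay between -0.09 and 0.20 in the 8 pairs. Among those genes *Slc40a1* lay between the percentiles 45.3 and 98.2, and *Cd163* between 1.64 and 99.7. *Slc40a1* was higher in 7 of 8 pairs with a median of 0.63, for example 90.98 against 60.2 CPM at the outer edge of section 1, and its median was lower in other settings, at 0.38 (8 of 8 pairs) when matched by step, 0.43 (6 of 8) with raw hemoglobin UMIs, 0.37 (8 of 8) with the top 25% of spots, 0.35 (7 of 8) within depth terciles and 0.30 (7 of 8) within macrophage terciles. *Cd163* was higher in 7 of 8 pairs with a median of 0.68, but no hemoglobin-high group held more than 18 of its UMIs and 1 group held 0. With the top 25% of spots its median was 0.24 (5 of 8 pairs), and with raw UMIs 0.34 (6 of 8). *Slc11a1* was higher in 6 of 8 pairs (median 0.57) and most of all in the tumor of section 2, at 80.2 against 31.1 CPM. Its median was 0.30 when matched by step and 0.34 within macrophage terciles. *Fth1* was higher in 6 of 8 pairs with a median of 0.14, *Blvrb* in 5 (0.26), *Cp* in 4 (-0.05), *Hpx* in 4 (0.07) and *Tfrc* in 1 (-0.24). Within single spots the relations were weak. Spearman's rho of *Hmox1* with hemoglobin lay between 0.07 and 0.36 by section and region, and the median over the 8 was between -0.02 and 0.06 for the other members. Set among genes with a UMI in at least 10% of spots, the rho of *Hmox1* lay between the percentiles 88.4 and 99.97. Those of the other members ranged from 1.06 to 99.77. Against the mean hemoglobin of the neighboring spots, the rho of *Hmox1* lay between 0.07 and 0.48. There *Fth1* ranged from -0.13 at the outer edge of section 2 to 0.33 at the inner edge of section 1. *Slc40a1* ranged from -0.01 to 0.33 at the same places. Pearson's r of *Hmox1* with hemoglobin on log2(CPM + 1) lay between 0.07 and 0.28. At such sparse counts these correlations are a description and no finding.

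*Hmox1* was also lower at a distance from single hemoglobin-rich spots, those with at least 5 adult globin UMIs. On the tumor side of section 2 it was at 822 CPM in these spots, 397 at 1 step, 270 at 2 steps and 203 at 3 to 4 steps. On the neural side it was at 991, 362, 268 and 235 CPM at the same distances, and at 26.5 beyond 8 steps. On the neural side of section 1 it was at 2320, 1458, 1057 and 721 CPM, and at 113 beyond 8 steps. At 5 to 8 steps on the tumor side of section 2 it was again higher, at 426 CPM. The 46 spots beyond 8 steps on that side, at 46.6 CPM, were the choroid plexus group. The tumor side of section 1 had under 20 hemoglobin-rich spots, and *Hmox1* there was 1948 CPM at 1 step, 1428 at 2 steps and 102 beyond 8 steps. On the tumor side of section 2 *Slc40a1* was 49.2 CPM in the rich spots and 46.4 at 3 to 4 steps, while *Fth1* was 4754 and 2769. Hemoglobin was itself highest near the border, where *Hmox1* was high. The macrophage list was at 3214 CPM in the rich spots and 2343 at 3 to 4 steps on the tumor side of section 2. On the tumor side of section 1 it instead rose from 6140 CPM at 1 step to 7828 beyond 8 steps. On the neural side it was at 4162 CPM in the rich spots, 4045 at 3 to 4 steps and 1783 beyond 8 steps in section 1. In section 2 it was at 4838, 3033 and 1410 CPM there. The part of position and of macrophages in this gradient was not tested.

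**Figure D5:**
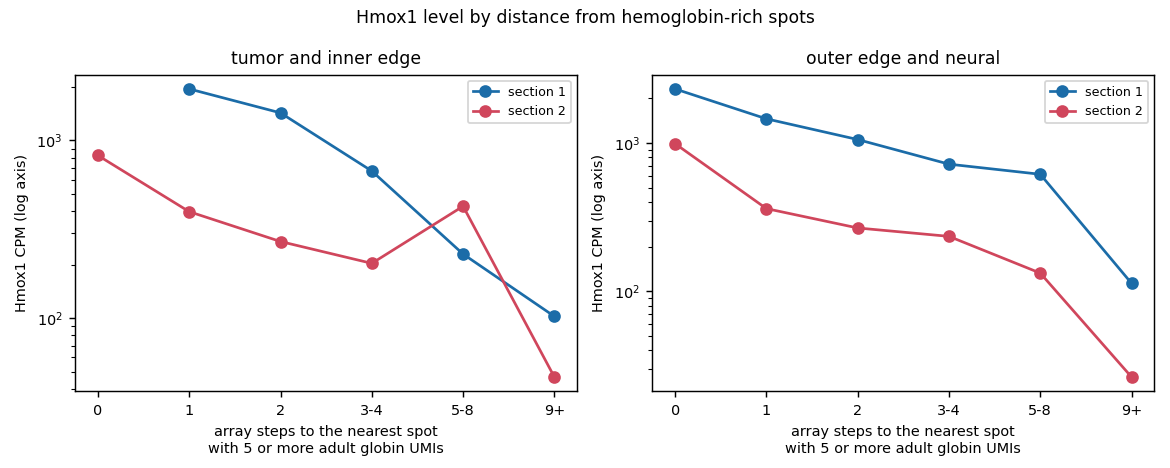
*Hmox1* level (CPM, log axis) by array steps to the nearest spot with 5 or more adult globin UMIs, on the tumor side (left) and the neural side (right), for section 1 (blue) and section 2 (red), for groups of at least 20 spots. On the neural side it was 2320 CPM in the rich spots and 113 at the greatest distance in section 1, and 991 and 26.5 in section 2.

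Other genes of heme and iron metabolism were read from 7 lists, of which 63 genes were tested. At the edge against neural tissue 4 of 63 were called, all higher, which is 6.35% against 20.4% of all genes. Among these were *Nfe2l2* (1.38, edgeR adjusted p = 0.00462), which encodes the stress regulator NRF2, *Slc25a37* (1.01, adjusted p = 0.011), a mitochondrial iron importer, and *Bach1* (0.83, adjusted p = 0.0309), a heme-sensing repressor of *Hmox1*. *Nfe2l2* was higher still in the tumor, at 284 and 298 CPM against 206 and 219 at the edge, and edge against tumor was called at -0.79 (edgeR adjusted p = 0.0175).

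At the edge against the tumor 6 of 63 were called, 3 in each direction (9.52% against 15.9%). *Trf*, which encodes transferrin, was at 236 CPM in the tumor, 2077 at the edge and 1209 in neural tissue of section 1, and at 589, 3134 and 1882 in section 2. It was fitted at 2.45 for edge against tumor (SE 0.27, edgeR adjusted p = 0.00372). The heme transporter *Flvcr2* (1.83, adjusted p = 0.0362) and the second transferrin receptor *Tfr2* (1.22, adjusted p = 0.0309) were also higher, at under 7 CPM each. The iron regulatory protein *Aco1* (-0.96, adjusted p = 0.0328), *Nfe2l2* and the iron chaperone *Pcbp1* (-0.59, adjusted p = 0.0363) were lower.

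In the tumor against neural tissue 19 of 63 were called, 13 higher and 6 lower, or 30.2% against 36.8%. The genes *Steap4* (1.90), *Steap1* (1.82), *Steap3* (1.71) and *Nfe2l2* (2.17) were among those that rose the most, with edgeR adjusted p from 4.18e-04 to 0.0294. The copper ferroxidase *Heph* (-1.83), *Flvcr2* (-1.80), *Trf* (-1.65), *Abcb6* (-1.21) and *Tfr2* (-1.07) fell the most, with adjusted p from 0.00429 to 0.0239. The constitutive heme oxygenase *Hmox2* held 78.8 to 110 CPM in all 8 libraries and was called in no comparison, nor were *Ncoa4*, *Slc11a2*, *Hp*, *Spic* and *Hamp*. The iron-binding lipocalin *Lcn2* was at 1094 and 2519 CPM at the edge and 337 and 616 in neural tissue, with an edgeR adjusted p of 0.0803.

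Over 64 libraries summed by section and step from the border, the genes most like *Hmox1* among 9637 were *Ctsd* (Pearson r = 0.94 on log2 CPM + 1, centered within section), *Ccl6* (0.93) and *Ftl1-ps1* (0.87). Those most like *Slc11a1* were *Cd300c2* (0.96), *Tyrobp* (0.96) and *Klhl6* (0.96). *Cp* was most like *Cd151*, *Ptbp3* and *Arpc1b* (0.94 to 0.96), and *Tfrc* most like *Ywhag*, *Cep170b* and *Atp6v1e1* (0.84 to 0.86). *Fth1* was most like *Galnt6*, *Lrpap1* and *Abhd12* (0.91). For *Blvrb* the nearest were *Wfdc17*, *Cd300lf* and *Arl11* (0.81 to 0.84), for *Slc40a1* *Ier3*, *Sdc4* and *Pxdc1* (0.77 to 0.79), for *Cd163* *Slc36a1*, *Lrrc4c* and *Rasd1* (0.72 to 0.74) and for *Hpx* *Atf5*, *Gfer* and *Ptp4a3* (0.48 to 0.54). Steps of 1 section are neighbors in 1 tissue and carry no p. Among the members, *Hmox1* ran with *Slc11a1* (r of 0.70 and 0.84 by section), and *Tfrc* ran against *Slc11a1* (-0.81 and -0.83). *Hmox1* and *Fth1* ran together in section 1 (0.84) and not in section 2 (0.03).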

How the data were processed

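The authors deposited raw UMI counts for each gene in each spot under tissue, made with Space Ranger 2.1.1 (build mm10, per the labels) without normalization. The section's array positions were also used. Probes of this assay count transcripts at set places, so levels of different genes were not compared. No batch is given beside the section, and barcodes shared by both sections (3096) are array positions. Sections held 3406 and 4017 spots with 63986887 and 71878333 UMIs, and spots under 500 UMIs were left out (91 and 18). At these depths counting error is small but for rare transcripts, and 2 sections set the precision. Intervals are at the 95% level and cover counting error only.

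Per spot, log2 of (CPM + 1) of the tumor list over the neural list was averaged over the spot and its 6 neighbors and divided by Otsu's threshold. Tumor-side groups under 30 spots were dropped (12 spots of section 2). Summed libraries were fitted with edgeR 4.0.16 in R 4.3.3 (filterByExpr, TMM, glmQLFit, glmQLFTest, 3 residual degrees of freedom), with section as a block, since its 4 regions share 1 mouse. Dropping the block moved the common dispersion from 0.0796 to 0.135. The edge is the mean of the inner and outer coefficients. Each printed SE was derived from the test, as the absolute log2 fold change divided by the square root of the quasi-likelihood F. Fitted log2 values use TMM factors (0.817 to 1.12), whereas printed CPM and folds within a section do not, so these can differ. With 2 sections a p that missed the threshold does not show that levels were alike. Other steps ran in Python 3.11.15 (pandas 2.3.3, scipy 1.17.1, numpy 2.4.6, matplotlib 3.10.9).

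Genes named were the members, hemoglobin genes, those called heme and iron genes whose sections shared a direction (at most 5 each way per comparison, by fold change), 11 others chosen for their roles, and the 3 genes most like each member among those with a mean of at least 20 CPM. A gene that this rule names is not reported here. The members and lists were chosen with earlier results of these data known. Alternatives covered DESeq2 1.42.0, scaling, the filter, the block, the border and its width, depth, choroid plexus and hemoglobin-rich spots, and each section alone. For the hemoglobin relation they covered the share of spots, raw UMIs, depth and macrophage terciles, the hemoglobin of neighboring spots and Pearson's correlation. Leaving out the choroid plexus group or the second tumor group of section 2, adult globins alone and matching by step were added after seeing the data.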

Additional observations from a re-analysis of the deposited data

Results flagged for a closer look

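*Slc40a1* moved in opposite directions in the 2 sections. The log2 ratio of CPM in the tumor to neural tissue was -1.01 in section 1 and 1.78 in section 2, with counting intervals apart in both. The difference was not tested, since each section is 1 sample, and the kind of tumor cannot be told apart from the animal.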

How the results depend on the processing

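The border moved the members' calls and the edge against the tumor the most among the alternatives run, whereas in the tumor against neural tissue dropping the block left fewer genes changed (4954) than the neural border did (5103, 5615 as reported). Drawn from the neural list alone, it left 333 genes changed at the edge against the tumor (2031 as reported), and called 3 members at the edge against neural tissue, 0 at the edge against the tumor and 1 in the tumor against neural tissue. It also turned *Hmox1* to -0.57 in the tumor against neural tissue and to 1.13 in the outer against the inner edge, and, between outer and inner edge, *Tfrc* to -0.21, *Slc11a1* to 0.70, *Blvrb* to 0.27 and *Hpx* to -0.029, and *Hpx* at the edge against the tumor to -0.25. The cause was not tested. None of the reversed values had been called. An edge of 1 step turned *Cd163* at the edge against neural tissue to 0.34 and, between outer and inner edge, *Fth1* to -0.0093 and *Cp* to 0.30. In that comparison *Cp* was 0.037 with library size alone, *Tfrc* -0.0302 with at least 1000 UMIs per spot, -0.0299 without hemoglobin-rich spots and -0.0513 without the second tumor group, and *Cd163* -0.0527 without that group. DESeq2 counted 162 genes as changed between outer and inner edge, and called *Hmox1* at the edge against the tumor (2.18) and in the tumor against neural tissue (1.85). An edge of 1 step also called the former (2.32). The section as a block follows the pairing of regions within 1 mouse. Without the block 1 member was called at the edge against the tumor, as with library size alone. Library size alone moved the median of all genes to 0.24 at the edge against the tumor and to -0.42 in the tumor against neural tissue, and the split of calls from 1540 higher and 1495 lower to 2180 and 361, and from 3734 and 3292 to 2495 and 5247. In raw UMIs per spot *Hmox1* was 4.87 at the edge against neural tissue and 3.40 in the tumor against neural tissue. Leaving out each section gave *Hmox1* values of 3.85 to 4.04 at the edge against neural tissue, 1.56 to 4.00 against the tumor, 0.043 to 2.30 in the tumor against neural tissue and -0.74 to -0.07 between outer and inner edge, and moved the hemoglobin-high median of *Hpx* between -0.073 and 0.876, on few UMIs, that of *Cp* between -0.126 and 0.262, of *Blvrb* between 0.143 and 0.286, of *Fth1* between 0.142 and 0.269, of *Tfrc* between -0.329 and -0.146 and of *Slc40a1* between 0.455 and 0.723.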
